A study of Mus musculus with 6 samples.

Results

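Immediate early genes are switched on within minutes of a stimulus, without new protein synthesis, and 10 of them were followed here in the adrenal medulla of mice: Fos, Fosb, Jun, Junb, Jund, Egr1, Nr4a1, Nr4a2, Nr4a3 and Arc. All probe sets (groups of short probes that read one transcript) whose only annotated symbol was one of these genes were taken, which gave 19 of 45037 probe sets and 10 of 18193 named genes. The samples were medullae of male C57/Bl6 mice taken 8 weeks after transverse aortic constriction (TAC, which narrows the aorta and loads the heart with pressure; 3 animals) or after sham surgery (3 animals). Both medullae of an animal were microdissected from frozen sections and their RNA was put on 1 Affymetrix mouse genome array. The labels used here give no ages. Values are log2 of the deposited intensities, differences are TAC minus sham on that scale, and a probe set was tested when it reached log2 4 on at least 3 of the 6 arrays.

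In the chromaffin cells that release adrenaline and noradrenaline, acetylcholine from the splanchnic nerve opens nicotinic channels, and the calcium and cyclic AMP signals that follow activate kinases that act on the transcription factors CREB and SRF. CREB binds the cyclic AMP response element (CRE), often as a half-site, and SRF binds the CArG box. The genes switched on in this way mostly encode transcription factors themselves. Fos and Jun proteins pair into AP-1, Egr1 is a zinc finger factor, and the Nr4a proteins are orphan nuclear receptors, while Arc encodes a protein of the synapse. The same genes are also known to respond to stress and tissue handling.

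The promoters of the 3 Nr4a genes and of Fos and Jun are shown because these genes differed most plainly in how they were distributed over the animals. Each line is the 250 bases before the annotated start in RefSeq (build GRCm38.p6), read 5′ to 3′ on the strand of the gene. Capitals mark CRE half-sites (TGACG on either strand), AP-1 sites (TGANTCA) and the AP-1 variant TGACATCA (either strand). A full CRE, TGACGTCA, would count as 2 overlapping half-sites. The stretches lie at chr15:101266596-101266845 (plus strand), chr2:57124004-57124253 (minus strand), chr4:48045055-48045304 (plus strand), chr12:85473640-85473889 (plus strand) and chr4:95052223-95052472 (minus strand).
Nr4a1: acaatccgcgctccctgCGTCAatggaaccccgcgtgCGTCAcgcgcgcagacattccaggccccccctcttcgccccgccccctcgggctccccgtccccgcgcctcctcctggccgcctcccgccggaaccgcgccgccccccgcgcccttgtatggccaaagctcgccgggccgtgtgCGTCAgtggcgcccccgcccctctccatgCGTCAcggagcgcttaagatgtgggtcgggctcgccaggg
Nr4a2: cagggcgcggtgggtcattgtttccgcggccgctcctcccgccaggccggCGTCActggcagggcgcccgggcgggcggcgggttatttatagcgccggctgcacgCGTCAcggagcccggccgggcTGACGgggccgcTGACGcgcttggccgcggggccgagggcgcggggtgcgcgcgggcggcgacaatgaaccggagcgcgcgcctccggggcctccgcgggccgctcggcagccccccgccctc
Nr4a3: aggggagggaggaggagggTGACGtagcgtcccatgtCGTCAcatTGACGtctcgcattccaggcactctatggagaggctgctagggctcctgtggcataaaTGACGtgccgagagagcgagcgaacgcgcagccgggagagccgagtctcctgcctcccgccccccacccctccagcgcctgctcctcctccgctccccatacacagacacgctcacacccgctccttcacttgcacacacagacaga
Fos: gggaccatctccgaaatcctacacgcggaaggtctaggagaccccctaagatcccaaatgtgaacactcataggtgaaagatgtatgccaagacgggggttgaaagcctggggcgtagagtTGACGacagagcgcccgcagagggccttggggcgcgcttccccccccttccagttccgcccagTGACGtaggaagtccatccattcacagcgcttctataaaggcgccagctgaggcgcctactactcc
Jun: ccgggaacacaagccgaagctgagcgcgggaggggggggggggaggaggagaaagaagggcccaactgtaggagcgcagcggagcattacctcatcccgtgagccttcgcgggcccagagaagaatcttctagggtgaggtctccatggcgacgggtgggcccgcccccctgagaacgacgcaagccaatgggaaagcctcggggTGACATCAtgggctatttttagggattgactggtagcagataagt

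Each of the 3 Nr4a promoters held 4 CRE half-sites, while 0.137% of the 32851 mouse promoter stretches of the same length held 4 or more and 17.8% held at least 1. The G and C content was 74.4% in Nr4a1, 80.0% in Nr4a2 and 63.6% in Nr4a3, and the 32851 stretches were not matched for it. Fos held 2, a number reached or passed by 3.9% of stretches. Fosb and Junb held 1 each, and Jun and Jund held 0. The full palindrome TGACGTCA was found in 0 of the 8 members with a RefSeq promoter entry and in 1.55% of all stretches, and the AP-1 site TGANTCA in 0 of the 8 and in 6.75%. Jun held the variant TGACATCA, as did 2.93% of stretches. An Egr site (GCGNGGGCG on either strand) was found in Fosb, Nr4a1 and Nr4a2 and in 4.7% of stretches, and TATAAA on the strand of the gene in Fos and in 7.59%. The CArG box (1.47% of stretches, both strands) and AAAGGTCA, the site that Nr4a proteins bind (1.34%, both strands), were in 0 of the 8. Egr1 and Arc had no promoter entry, and bases outside the window of 250 were not searched, so sites there would be missed. These are matches of letters in a fixed window and not measured binding, and promoters overlap where a gene has several starts.

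**Figure D1:**
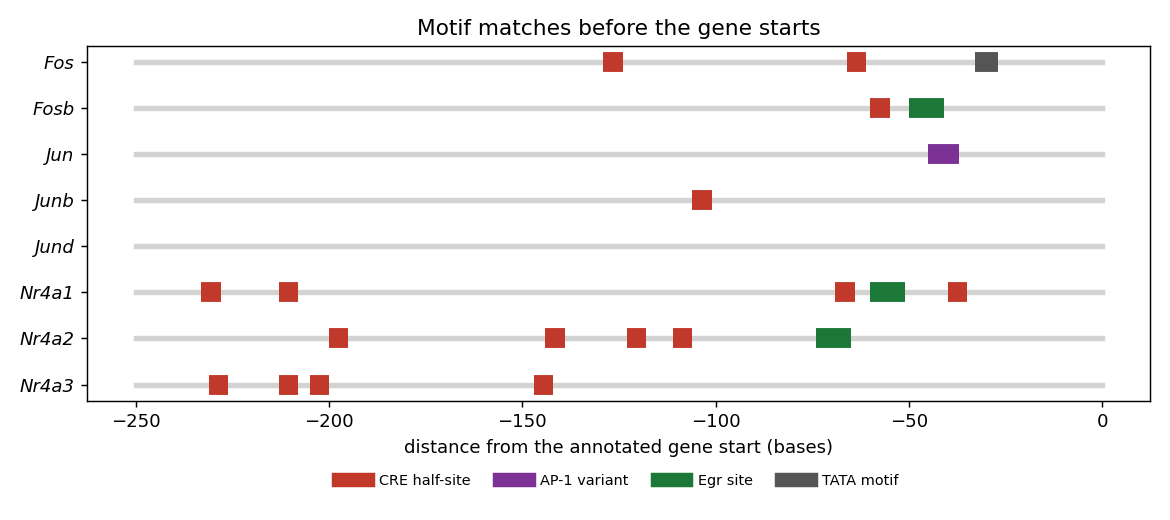
Motif matches in the 250 bases before the annotated start of 8 genes, with distance from the start in bases on the x axis. Each of Nr4a1, Nr4a2 and Nr4a3 carries 4 CRE half-sites (red), against 2 in Fos, 1 each in Fosb and Junb and 0 in Jun and Jund.

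Of the 10 genes, 7 were measured (Fos, Jun, Jund, Egr1, Nr4a1, Nr4a2 and Nr4a3), through 9 of the 19 probe sets. No difference between TAC and sham passed the threshold: 0 of the 9 probe sets had an adjusted p under 0.05 (limma with Benjamini-Hochberg adjustment), against a background of 0% of all 18188 tested probe sets. At an unadjusted p under 0.05 there were also 0 of the 9, against 6.94% of all tested. Of the 7 genes, read by the probe set with the highest mean, 4 were numerically higher and 3 lower after TAC, with a median difference of 0.13, against 58.7% higher and a median of 0.09 over 10181 genes. Animals of one group lay far apart. The median SD between arrays of a group was 1.05 for the 7 genes and 0.51 for all tested probe sets.

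The 3′ minus 5′ signal of the Gapdh control, which is larger where RNA is shortened, was 4.71, 3.67 and 3.98 in TAC 1 to 3 and 5.15, 3.08 and 2.88 in sham 1 to 3. Sham 1 had the largest value and was also the lowest of the 6 arrays at 38.2% of tested probe sets. The mean of 7 measured adrenal cortex markers, a sign of tissue carried over from around the medulla, was 9.65, 8.46 and 6.77 after TAC and 7.87, 6.81 and 10.94 after sham, so that sham 3 and TAC 1 held the most. Neither measure separated the groups (exact 2-sided permutation p = 0.6 for Gapdh and 0.9 for cortex, where 3 against 3 arrays cannot go below 0.1). Chromaffin markers were abundant on all arrays, with a mean over 8 genes of 12.42 to 13.26 after TAC and 12.44 to 13.03 after sham. The marker means of endothelial cells (5 of 10 listed genes measured), smooth muscle (4 of 7), macrophages (7 of 9) and glia (6 of 8) overlapped between the groups, with exact permutation p-values from 0.4 to 1, and 0 of 4 red cell markers were measured. By gene, 2 glia, 1 smooth muscle and 1 macrophage marker were higher after TAC at an unadjusted limma p under 0.05 (against 4.65% of all tested probe sets). The same numbers were higher without overlap (against 9.01%). In smooth muscle 1 marker was lower without overlap (against 4.01%), and 0 passed the threshold in these lists. Fibroblast markers had the largest group difference of these means, at 6.62 to 7.75 after TAC and 7.32 to 8.60 after sham (difference -0.96, exact permutation p = 0.2). Of the 8, 6 were numerically lower after TAC, 4 of them at an unadjusted limma p under 0.05 (against 2.29% of all tested probe sets), 3 without overlap (against 4.01%) and 0 past the threshold. Of the 2 that were higher, Pdgfrb was at an unadjusted limma p under 0.05 (against 4.65%) and without overlap (against 9.01%). Neuron markers averaged 6.04 to 7.11 after TAC and 6.66 to 7.67 after sham, with 7 of 8 numerically lower (difference -0.64, exact permutation p = 0.2). At an unadjusted limma p under 0.05, 1 was lower (against 2.29%). Without overlap 1 was lower (against 4.01%) and 1, Nefh, was higher (against 9.01%). All these markers were read by 1 probe set per gene. Read in the same way, 625 of all 10181 tested genes were higher and 117 lower at an unadjusted limma p under 0.05. Without overlap 1177 of them were higher and 264 lower. The part of these cell types in the values below was not tested. In whole tissue, fewer cells of a type and less RNA per cell cannot be told apart.

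Fos, the best known marker of recent cell activation, measured 12.34, 14.46 and 12.81 in TAC 1 to 3, against 11.42, 13.37 and 12.36 in sham 1 to 3. TAC 2 was the highest and sham 1 the lowest, and the groups overlapped. The difference was 0.82 ± 0.72 (SE, n = 3 per group, 1.77-fold), with a 95% interval of -0.93 to 2.57 and an adjusted p of 0.952 in limma. Its size depended on single arrays, at 0.19 without TAC 2, 0.34 without sham 1, 1.25 without TAC 1 and 1.32 without sham 2, and it was 0.06 with array weights. Within a group Fos varied 4.36-fold after TAC and 3.87-fold after sham.

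Jun, the partner of Fos in AP-1, was read by 2 probe sets. The brighter one measured 7.53, 8.84 and 7.62 after TAC and 7.48, 8.86 and 9.23 after sham. The other measured 7.45, 8.12 and 6.40 after TAC and 7.58, 7.86 and 8.43 after sham. Both overlapped between the groups, both were highest in sham 3, and their differences were -0.53 ± 0.58 and -0.63 ± 0.49 (SE; limma adjusted p = 0.979 and 0.939). For the brighter one the difference was farther from 0 when sham 1 (-1.05) or TAC 2 (-0.95) was left out, and nearer to it when TAC 3 (-0.34), TAC 1 (-0.29) or sham 3 (-0.17) was. It was 0.06 once sham 3 and TAC 1, which held the most cortex signal, were both left out. With array weights the differences were -1.34 and -1.58 (limma adjusted p = 0.00967 and 0.0114). That fit called 6698 of the 18188 tested probe sets. It gave TAC 3 a weight of 6.11, so that the TAC side rested mostly on 1 array.

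Jund, a Jun relative that is expressed more steadily than Fos or Jun, measured 11.29, 10.99 and 10.55 after TAC and 10.59, 9.55 and 10.38 after sham. The 2 highest arrays were TAC arrays, and TAC 3 overlapped with sham 1. Its difference of 0.77 ± 0.37 (SE, 1.70-fold, 95% interval -0.13 to 1.66) had the smallest unadjusted p of the 9 probe sets (0.0803; limma adjusted p = 0.785). It was 0.46 without sham 2 and 0.98 without sham 1. A further Jund probe set lay between 2.61 and 2.71 on all arrays.

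Junb, another Jun relative, was below log2 4 on 4 of 6 arrays and was not tested. It measured 4.61, 5.62 and 3.61 in TAC 1 to 3 and 3.60, 3.61 and 3.52 in sham 1 to 3. Only TAC 1 and TAC 2 stood above the level that the other 4 arrays shared, and the edges of the groups met at 3.61. With no filter on low values the difference was 1.04 ± 0.52 (SE), with a limma adjusted p of 1. Fosb, which encodes a relative of Fos, lay below log2 4 on all arrays, with 3.34 in TAC 2 and 2.52 to 2.62 on the other 5. Junb, Fosb and Fos were thus all highest in TAC 2, an array that was the highest of the 6 at 32.8% of all tested probe sets.

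Egr1, whose protein is known to bind the Th and Pnmt promoters in rat, measured 11.54, 12.27 and 11.86 after TAC and 11.91, 11.98 and 10.65 after sham. Sham 3 stood below the other 5 arrays, which lay within 0.73 of each other. The difference was 0.38 ± 0.44 (SE, 1.30-fold, 95% interval -0.68 to 1.44, limma adjusted p = 0.980). It was -0.05 when sham 3 was omitted, 0.19 when TAC 2 was, and 0.58 and 0.615 when sham 1 and sham 2 were.

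**Figure D2:**
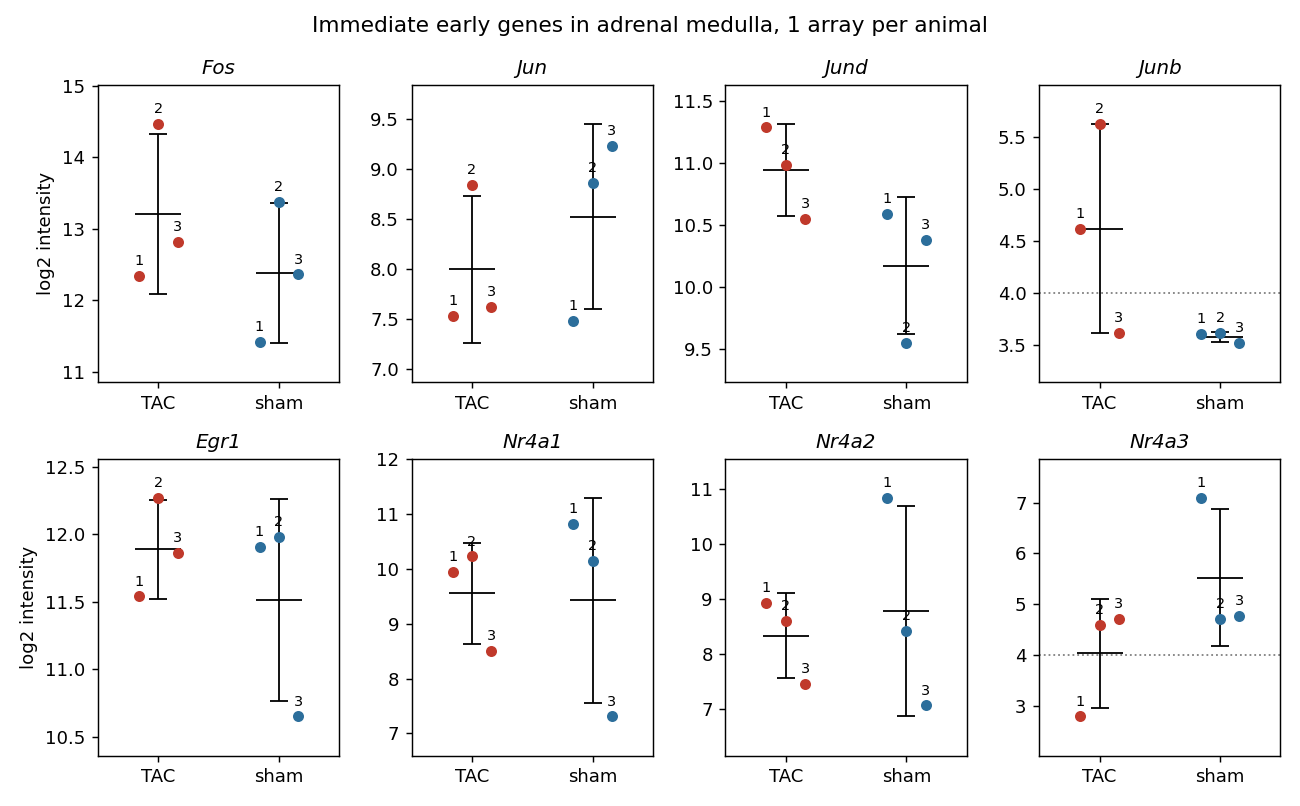
Log2 intensity of 8 immediate early genes in the 3 TAC (red) and 3 sham (blue) arrays, 1 animal each, with replicate numbers beside the points and the mean and SD as black bars. The dotted line marks log2 4, and the groups overlap in every panel but those of Nr4a3 and Junb, where their edges meet at 4.72 and 3.61.

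The Nr4a genes had the widest spread. Nr4a1, an orphan receptor gene also known as Nur77, measured 9.94, 10.23 and 8.50 in TAC 1 to 3, against 10.83, 10.15 and 7.31 in sham 1 to 3. Sham 1 was the highest and sham 3 the lowest of all arrays, 11.5-fold apart, and the TAC values lay between them. The difference of 0.13 ± 0.99 (SE, 95% interval -2.29 to 2.54, limma adjusted p = 0.998) changed sign with single arrays, at -0.94 without sham 3, 0.83 without sham 1, 0.485 without sham 2, 0.66 without TAC 3, -0.21 without TAC 2 and -0.07 without TAC 1.

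Nr4a2, or Nurr1, which is needed for the dopamine neurons of the midbrain, measured 8.94, 8.61 and 7.46 after TAC and 10.84, 8.43 and 7.07 after sham in its brightest probe set. Its order over the sham arrays was that of Nr4a1, with sham 1 and sham 3 at the ends and 13.7-fold apart. The difference was -0.44 ± 0.98 (SE, 95% interval -2.84 to 1.95, limma adjusted p = 0.990), and 0.59 without sham 1, -1.30 without sham 3, -0.75 without TAC 1 and -0.004 without TAC 3. Another tested probe set, whose suffix (s) marks probes shared between transcripts, measured 4.18, 3.34 and 4.91 after TAC and 7.59, 3.26 and 2.16 after sham. There too sham 1 was highest and sham 3 lowest, and its difference was -0.19 ± 1.40 (SE, limma adjusted p = 0.998). With array weights that difference was 1.99 ± 0.54 (SE, limma adjusted p = 0.0297), in the fit that called 6698 of 18188 tested probe sets. That fit gave sham 1, the highest array here, a weight of 0.143. Of the 6 values of this probe set, 3 lie below log2 4. A further probe set reached log2 4 on sham 1 alone (4.66, against 2.80 to 3.33 after TAC and 2.47 to 3.07 in the other sham arrays), and 3 more stayed between 2.53 and 3.74.

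Nr4a3, or Nor1, measured 2.80, 4.59 and 4.72 after TAC and 7.09, 4.72 and 4.77 after sham. Sham 1 stood alone at the top and TAC 1 alone at the bottom, and the other 4 arrays lay between 4.59 and 4.77. By a margin under the second decimal the groups did not overlap, making it 1 of the 9 tested probe sets lower without overlap, against 4.01% of all tested, and 0 of the 9 were higher without overlap, against 9.01% (13% in either direction). The difference was -1.49 ± 0.83 (SE, 95% interval -3.51 to 0.53, limma adjusted p = 0.854), -1.09 with values under log2 4 set to 4, -0.71 without sham 1, -0.87 without TAC 1 and -0.09 without sham 1 and TAC 1 together. With array weights it was -0.20. The other 2 Nr4a3 probe sets lay between 2.55 and 2.84 on all arrays, and Arc, in its only probe set, between 2.30 and 2.39.

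**Figure D3:**
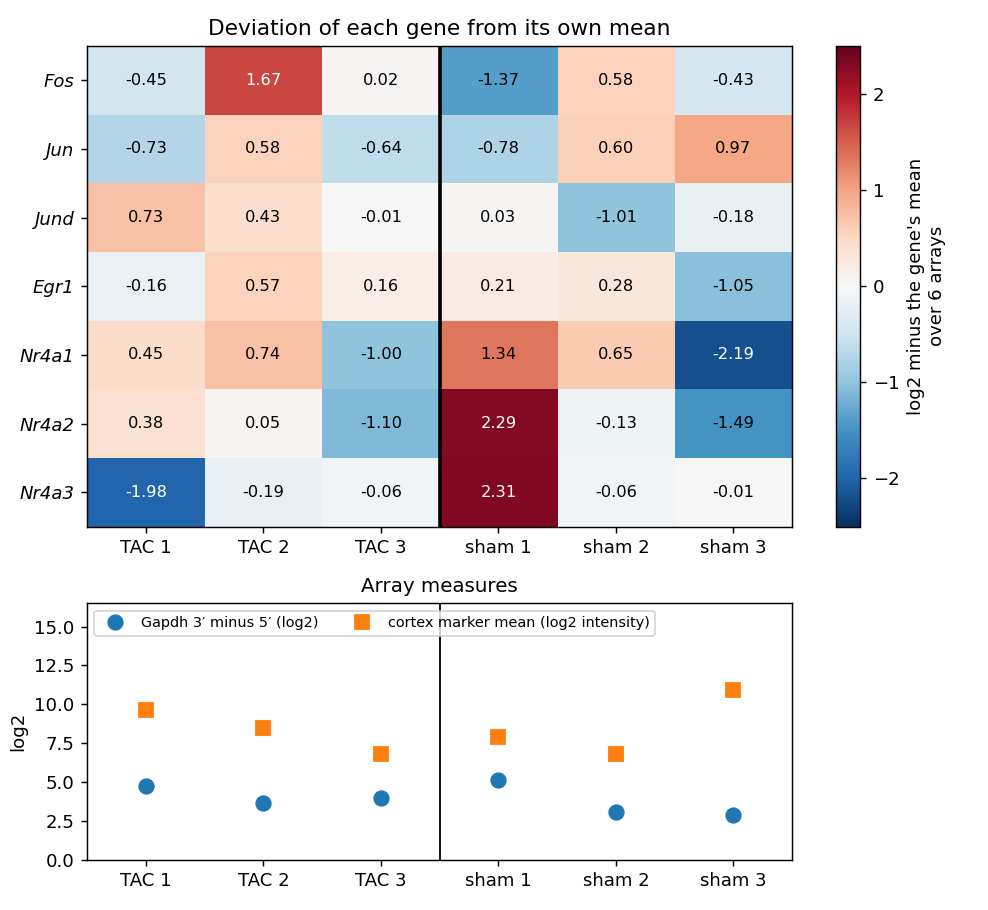
Upper panel, log2 value of each measured gene minus its own mean over the 6 arrays, with TAC arrays left of the line and sham arrays right of it. Lower panel, Gapdh 3′ minus 5′ difference and cortex marker mean of the same arrays on a log2 scale. Sham 1 is at 1.34, 2.29 and 2.31 for the Nr4a genes and at -1.37 and -0.78 for Fos and Jun.

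The members did not move as one block over the animals. All 3 Nr4a genes were highest in sham 1, where their mean was 9.59, against 6.38 to 7.77 in the other sham arrays and 6.89 to 7.81 after TAC. Fos and Jun (by its brighter probe set, at 7.48 against 7.53 in TAC 1) were lowest in that same array. These were 2 of the 7 genes (28.6%), against 38.2% of all tested probe sets. The other Jun probe set was lowest in TAC 3. Over all tested probe sets sham 1 was the highest of the 6 arrays at 15.3%. Sham 3 was the lowest array for 3 of the 7 genes (Egr1, Nr4a1 and Nr4a2), against 11.7% of all tested probe sets. From sham 1 to sham 3 the values differed by 3.53 for Nr4a1, 3.78 for Nr4a2, 2.32 for Nr4a3 and 1.26 for Egr1 (sham 1 minus sham 3), against -0.94 for Fos, -1.75 for Jun, 0.21 for Jund and a median of -0.44 over all tested probe sets. The Nr4a1 and Nr4a2 values lay above 99.4% and 99.6% of all tested probe sets in this contrast of 2 animals, which was chosen after the values were seen and has no test.

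Sham 1 also had the largest Gapdh 3′ minus 5′ difference, and sham 3 the most cortex signal and the smallest Gapdh difference. The same difference of the actin control was also largest in sham 1 (7.93). It was smallest in sham 2 (3.31, against 3.93 in sham 3). The part of RNA integrity and of cortex carry-over in the Nr4a spread was not tested. The cortex mean was 9.65, 8.46 and 6.77 in TAC 1 to 3 and 7.87, 6.81 and 10.94 in sham 1 to 3. The mean of the 3 Nr4a genes was 7.23, 7.81 and 6.89 in TAC 1 to 3 and 9.59, 7.77 and 6.38 in sham 1 to 3. Nr4a3 alone was lowest in TAC 1 (2.80).

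Set against all tested probe sets, a sham range as wide as that of Nr4a1 was found at 1.61% and one as wide as that of Nr4a2 at 1.02%, and as wide as that of Nr4a3 at 9.26%. After TAC the same genes were less far from the rest, with ranges reached by 15.9%, 22.7% and 12% of all tested probe sets. Fos had ranges reached by 16.3% in sham and 8.32% after TAC. Egr1 (33.5% and 58.7%) and Jund (45% and 58.6%) had ordinary ranges. Whether the spread differs between TAC and sham was not tested.

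**Figure D4:**
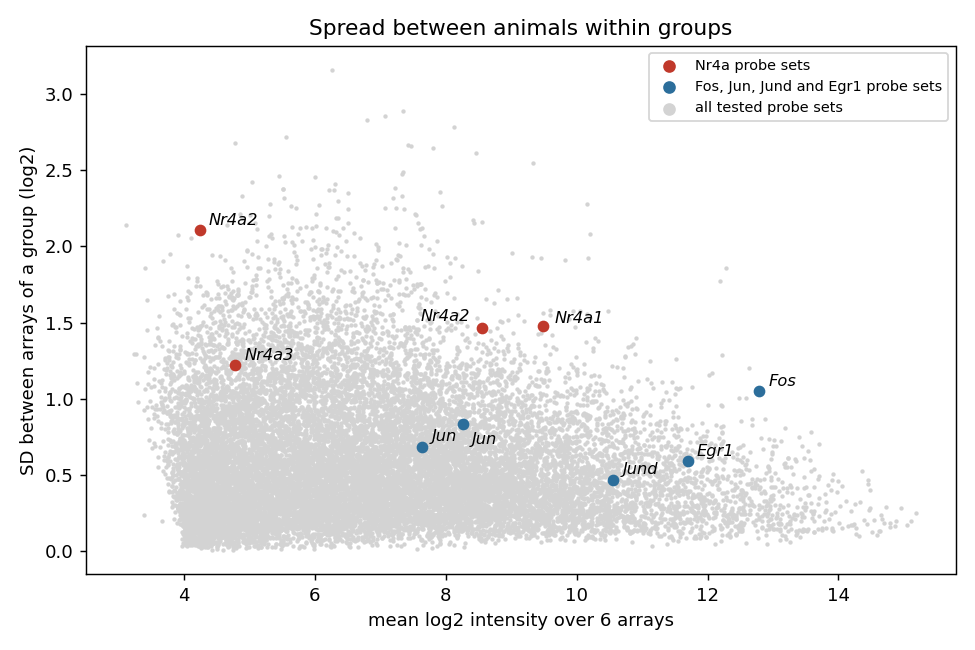
SD between the arrays of a group (y axis, log2) against mean log2 intensity over 6 arrays (x axis) for all tested probe sets (grey), the Nr4a probe sets (red) and those of Fos, Jun, Jund and Egr1 (blue). Nr4a1 and Nr4a2 lie at SDs of 1.48 and 1.46, above 96.5% and 96.3% of tested probe sets, and Jund and Egr1 at 0.47 and 0.59, near the median of 0.51.

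Relatives of the members were examined from lists that name their partners and other rapidly induced genes. Of the relatives and cofactors of Egr and Nr4a, 6 of 10 were measured, 4 numerically higher and 2 lower after TAC, with a median of 0.22 and 0 past the threshold. Egr3, a close relative of Egr1 (named after its values were seen), measured 7.97, 8.57 and 6.27 after TAC and 9.16, 7.93 and 4.66 after sham. Egr2 (named in the same way) measured 9.67, 10.64 and 9.76 after TAC and 10.68, 11.04 and 8.12 after sham. Both were lowest in sham 3, as Egr1 was. Nab2, which encodes a corepressor that Egr1 itself induces, measured 6.90, 6.51 and 5.98 after TAC and 6.63, 4.40 and 3.84 after sham (1.51 ± 0.75 SE, limma adjusted p = 0.805). The groups overlapped through sham 1, and 1 sham value lay below log2 4. Its relative Nab1 differed by -0.33 ± 0.31 and Rxrb, which encodes a retinoid receptor, by 0.50 ± 0.23 (SE; limma adjusted p = 0.958 and 0.774). Leaving out single arrays moved the median of these 6 genes between -0.32 (sham 3 left out) and 0.52 (sham 2 left out).

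Of 14 other AP-1 subunits and partners, 7 were measured, 4 numerically higher and 3 lower, with a median of 0.27 and 0 past the threshold. Mafk, which encodes a small Maf protein, measured 6.01, 6.35 and 6.08 after TAC and 5.56, 5.67 and 5.40 after sham (0.60 ± 0.23 SE, limma adjusted p = 0.682). It was 1 of the 7 higher without overlap, against 9.01% of all tested probe sets. Fosl2, a Fos relative, measured 11.07, 11.84 and 11.25 after TAC and 12.51, 11.89 and 11.04 after sham (-0.43 ± 0.44 SE, limma adjusted p = 0.974), again with sham 1 at the top and sham 3 at the bottom. Atf4, a stress-induced factor, read 0.49 in its brightest probe set (suffix x, for cross-hybridising probes) and -0.73 and -0.22 in others, so no direction can be given. Leaving out single arrays moved the median of these 7 genes between -0.08 (sham 1 left out) and 0.44 (TAC 1 left out), and it was -0.21 with array weights.

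Of 43 other rapidly induced genes, 32 were measured, 16 numerically higher and 16 lower after TAC, with a median of 0.004 and 0 past the threshold. The smallest p-values belonged to Socs3, a brake on cytokine signalling (0.83 ± 0.34 SE, limma adjusted p = 0.718), Gadd45a, a DNA damage response gene (-1.43 ± 0.68 SE, limma adjusted p = 0.782), and Rhob, a small GTPase gene (0.52 ± 0.28 SE, limma adjusted p = 0.842). Socs3 read -0.04 in its other probe set. In this list 11 genes were lowest in sham 3 (34.4%, against 11.7% of all tested probe sets) and 10 in sham 1 (31.2%, against 38.2%), while 12 were highest in TAC 2 (37.5%, against 32.8%). Only 6 of the 32 were highest in sham 1 (18.8%, against 15.3%). Among these was Homer1 (named after its values were seen), which encodes a synaptic scaffold with a short form induced by activity. It measured 8.12 in sham 1, against 5.06 to 5.48 after TAC and 4.25 and 4.51 in sham 2 and sham 3. The median of these 32 genes ranged from -0.29 with TAC 2 left out to 0.24 with TAC 1 left out.

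The kinases and transcription factors that switch these genes on were measured at 30 of 41, 18 numerically higher and 12 lower, with a median of 0.08 and 0 past the threshold. Crebbp, which encodes a coactivator of CREB, measured 8.82, 9.33 and 9.09 after TAC and 7.79, 8.41 and 8.02 after sham in its brightest probe set (2.01-fold, SE 0.27 on the log2 scale, limma adjusted p = 0.514). Its other probe sets read 0.35 and -1.35, so the probe sets disagree in sign. The catalytic subunit genes of protein kinase A differed in opposite directions, Prkaca by 0.74 ± 0.23 (suffix x) and Prkacb by -1.45 ± 0.42 (SE, limma adjusted p = 0.560 and 0.551). Another tested Prkaca probe set differed by 0.23 ± 0.25 (SE). Prkaca, in its brighter probe set, was higher without overlap (against 9.01% of all tested probe sets) and Prkacb lower (against 4.01%). Of the 30 genes, 2 were higher and 2 lower without overlap. Creb1 itself differed by -0.08 ± 0.43 and Srf by -0.60 ± 0.57 (both named after their values were seen). In this list 17 of the 30 genes were lowest in sham 1 (56.7%, against 38.2% of all tested probe sets) and 16 were highest in TAC 2 (53.3%, against 32.8%). The median of these 30 genes ranged from -0.14 with sham 1 left out to 0.30 with TAC 1 left out, and was -0.22 with array weights.

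Secretory genes described as targets of AP-1, Egr1 or Nr4a in chromaffin or related cells were measured at 16 of 17, 7 numerically higher and 9 lower, with a median of -0.24 and 0 past the threshold. The smallest p-values belonged to Slc18a2, a vesicular monoamine transporter gene (-0.69 ± 0.33 SE), Penk, which encodes proenkephalin (-0.86 ± 0.49 SE), and the neuropeptide gene Vip (-1.33 ± 0.80 SE), with limma adjusted p-values of 0.787, 0.870 and 0.884. Vip lay below log2 4 on 2 TAC arrays and 1 sham array, so its size is unreliable. Their median ranged from -0.47 with TAC 2 left out to 0.11 with TAC 1 left out, and reached 0.20 with both sham 3 and TAC 1 left out. Of these 16 genes 8 were lowest in TAC 1 and 10 highest in sham 2, against 19.3% and 17.6% of all tested probe sets. Of the 7 immediate early genes 1 was lowest in TAC 1 and 0 were highest in sham 2. Sham 3 was the lowest array for 5 of the 16 (31.2%) and for 3 of the 7 (42.9%), against 11.7% of all tested probe sets.

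**Figure D5:**
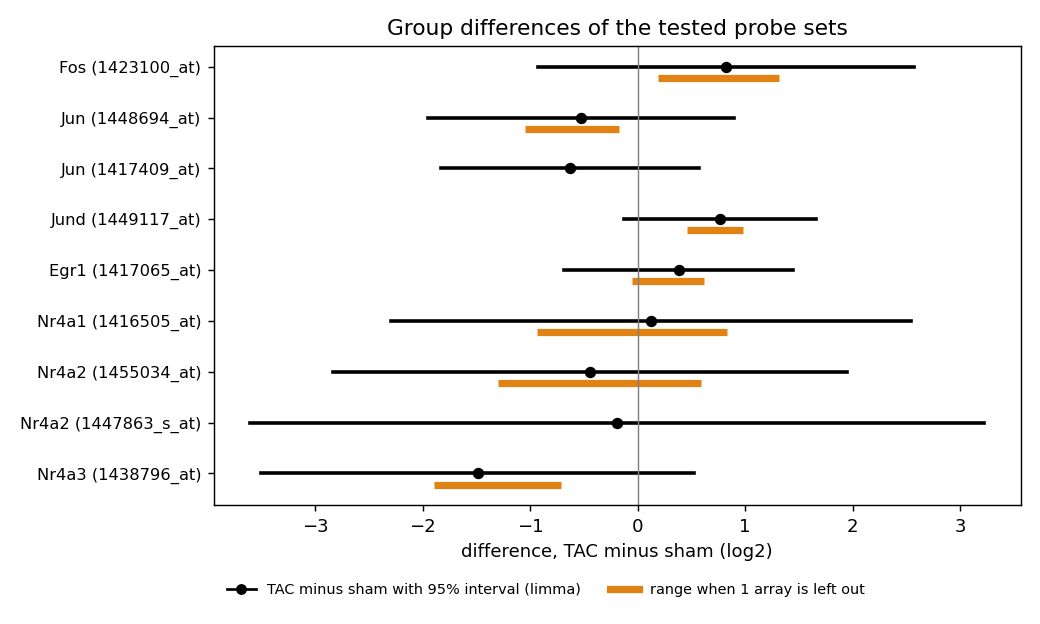
Difference of TAC minus sham (log2) for the 9 tested probe sets with 95% limma intervals (black), and its range over the 6 fits that leave out 1 array (orange, for the brightest probe set of each gene). Every interval includes 0, and leaving out 1 array moves Nr4a2 between -1.30 and 0.59.

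The intervals were wide with 3 animals per group. For Nr4a1, Nr4a2 and Nr4a3 they reached past 2 log2 units on at least one side, for Fos from -0.93 to 2.57, and for Jund and Egr1 to 1.66 and 1.44 at the upper end. They do not show that the groups were alike.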

How the data were processed

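The authors deposited 1 background-corrected linear intensity per probe set and array. Per the submitters' processing notes GCRMA was used; no version or setting of it is stated there. RNA was amplified in a two-cycle 3′ protocol, per the labels' protocols. Of 45101 probe sets, 64 array controls were left out. GEO's platform annotation gave 1 symbol for 34945 of the rest, and list symbols that were older names were updated through RefSeq synonyms. The deposited intensities were converted to log2, 18188 probe sets that reached log2 4 on 3 or more of the 6 arrays were kept, and TAC was compared with sham in limma 3.58.1 (R 4.3.3; lmFit and eBayes without covariates, 2-sided, 4 residual degrees of freedom, Benjamini-Hochberg over all tested probe sets). The probe set with the highest mean stood for a gene. All members are named whatever their values, and in each of 5 pathway lists the 3 genes with the smallest p. Members and lists were chosen with earlier results of these data known. Alternatives changed scaling, filter, low values, array weights, prior, probe set choice, replicate block and the arrays used. The procedure was tested on simulated data. The number of arrays limits precision, with a median SE of 0.39 over all tested probe sets. Promoter stretches come from RefSeq (GRCm38.p6), and 8 of the 10 members were matched by symbol. No genome coordinates are given for probe sets, since the table of values names no build. The replicate numbers were not treated as pairing the animals.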

Additional observations from a re-analysis of the deposited data

How the results depend on the processing

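Over 19 other settings, the count of immediate early probe sets with an adjusted p under 0.05 was 0 in 18. With array weights it was 3 of the 9 (the 2 of Jun and 1 of Nr4a2), against 6698 of all 18188 tested probe sets. The median difference over the 7 genes was between -0.21 and 0.58 when single arrays were left out and 0.64 without sham 1 and TAC 1 together. The sign turned for Jun without sham 3 and TAC 1 together (0.058), for Egr1 without sham 3 (-0.051, with 0.615 as the highest value when single arrays were left out), for Nr4a1 with array weights (-0.054), without TAC 1 (-0.07), without TAC 2 (-0.21), without sham 3 (-0.94) and without sham 3 and TAC 1 together (-1.13; with single arrays left out its highest was 0.829, without sham 1), and for Nr4a2 without sham 1 (0.59) and without sham 1 and TAC 1 together (0.29; with single arrays left out its lowest was -1.30, without sham 3, and without sham 3 and TAC 1 together it was -1.60). Fos, Jund and Nr4a3 kept their sign in all settings run, and Nr4a3 was left out by the filter on means under log2 6. The settings that leave out 2 arrays were chosen after seeing the data. The cause of these changes was not tested. With the replicate number as a block, the unadjusted p of Fos was 0.0151 (difference 0.82 ± 0.22 SE, limma adjusted p = 0.226), and no member passed. Deviations from the group means correlated over tested probe sets at 0.76 for the animals numbered 1, 0.78 for those numbered 2 and -0.22 for those numbered 3. TAC 3 correlated best with sham 1 (0.20). These correlations cannot decide whether animals of the same number were paired, since TAC 2 and sham 3 also correlated at 0.71. Without sham 1, Jund had an unadjusted p of 0.0445 (0.98 ± 0.38 SE, limma adjusted p = 0.363). Array scaling moved no member's sign.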
